A study of Mus musculus with 6 samples.

Results

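The genes described are the G1 cyclins Ccnd1, Ccnd2, Ccnd3, Ccne1 and Ccne2, the cyclin-dependent kinases Cdk2, Cdk4 and Cdk6, and the pocket protein genes Rb1 and Rbl1, measured in leukaemic mouse progenitors with and without an induced Notch1 intracellular domain. They were taken by name, as every probe set whose single gene symbol in the platform annotation is one of these 10, which gave 30 of the 45101 probe sets on the array. Ccnd2 had 7 probe sets, Rbl1 4, Ccnd1, Ccnd3, Cdk4 and Cdk6 3 each, Ccne1, Cdk2 and Rb1 2 each, and Ccne2 1.

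D-type cyclins are made in response to growth signals and activate the kinases CDK4 and CDK6, whereas E-type cyclins activate CDK2 later in G1. These kinases phosphorylate the retinoblastoma protein and its relative p107, the product of Rbl1, which otherwise bind E2F transcription factors and hold back the genes of S phase. In blood progenitors the balance of these proteins is known to set the choice between division and cell cycle exit, CDK6 is known as a dependence of leukaemias driven by MLL fusions, and Ccnd1 is a known Notch target in several tissues.

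The study compared 2 genotypes of cells that all carried MLL-AF9, a fusion oncogene of acute myeloid leukaemia, delivered by infection with a yellow fluorescent marker (YFP). The N1-IC+ group (n = 3) carried lsl-N1-IC on one allele of EF1α (EF1αwt/lsl-N1-IC) together with ROSAwt/CreERT2, so that tamoxifen-activated Cre is meant to release the Notch1 intracellular domain. The WT group (n = 3) was EF1αwt/wt, again with ROSAwt/CreERT2. Lethally irradiated wild-type recipients, 12 weeks old, had received 50000 cKit+ infected cells with 250000 wild-type support marrow cells. Both groups, WT included, carried CreERT2 and got 2 tamoxifen injections of 0.2 mg per g from 4 weeks after transplantation, and bone marrow was taken 6 days after the last one. The sorted cells, called LGMP in the labels, were lineage-negative, cKit+, Sca1-, YFP+, CD34+ and FcgRII/III+, and 5 ng of total RNA from each sample was amplified for the array. By the labels every N1-IC+ sample was female and every WT sample male, so genotype and sex cannot be told apart in any value that follows. The labels do not say how many mice stood behind a sample, so a p-value here reflects only how far these 6 samples spread.

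Some arrays stood apart from their group. The mean of 13 erythroid and megakaryocyte markers was 6.40 to 6.99 log2 units on the N1-IC+ arrays and 6.48, 9.10 and 7.01 on WT replicates 1, 2 and 3, and Xist, the RNA of the inactive X chromosome, had 12.78, 12.82 and 12.73 in N1-IC+ but 5.64, 10.70 and 5.42 on the arrays labelled WT replicates 1, 2 and 3. The chromosome Y gene Eif2s3y had 11.31, 10.34 and 11.26 on these WT arrays. WT replicate 2, labelled male, so had both Xist and Y-linked RNA, and the reason was not tested. The mean of 12 late granulocyte markers was 10.20 to 10.70 on the N1-IC+ arrays and 7.69, 10.50 and 10.06 on WT replicates 1, 2 and 3. Of the sort gate genes, Kit, Cd34, Fcgr3 and Fcgr2b lay at 10.05 or above on all 6 arrays, well over the array medians of 5.63 to 5.67. Cd34, a gate gene, had 11.04, 10.05 and 11.28 in N1-IC+ and 11.69, 11.52 and 11.33 in WT, without overlap (log2 fold change of -0.72 ± 0.33, limma adjusted p = 0.644). Ptprc, the pan-leukocyte CD45 gene, had 11.59, 11.67 and 11.63 in N1-IC+ and 11.29, 11.01 and 11.45 in WT, also without overlap (0.38 ± 0.13, limma adjusted p = 0.639). The Notch feedback gene Nrarp had 8.01, 9.74 and 11.33 log2 units in N1-IC+ and 7.22, 6.96 and 6.41 in WT (limma adjusted p = 0.639). Notch1 itself had 11.08, 11.31 and 11.59 in N1-IC+ and 11.54, 11.38 and 11.07 in WT, and which part of the gene its probe sets read was not analysed here. Values are log2 of deposited intensities, a level of 1 probe set is not comparable with that of another, and in sorted bulk cells fewer cells of a type and less RNA per cell cannot be told apart.

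No probe set of the 10 genes passed the test between the genotypes. With limma over all 45101 probe sets, 0 of the 30 had an adjusted p under 0.05, their smallest being 0.640 for Rb1, and over the whole array 4 probe sets passed (0.00887%), all lower in N1-IC+. The 1 of them with a single gene name was Eif2s3y on chromosome Y, at -7.75 ± 0.29 (limma adjusted p = 0.00201), beside N1-IC+ samples labelled female and WT samples labelled male, and the other 3 are unnamed here. At an unadjusted p under 0.05 there were 2 of the 30, one of Rb1 and one of Ccnd1, both higher in N1-IC+. Of all probe sets 7.69% reached that mark, 3.57% on the higher side, so the members' 6.67% was near the background. The 3 arrays of N1-IC+ did not overlap the 3 of WT in 7 of the 30, against 14.4% of all probe sets. These 7 were all 3 probe sets of Cdk4 and both of Ccne1, below WT (7.02% of all probe sets), and 1 each of Rb1 and Ccnd1, above WT (7.39% of all). Probe sets of 1 gene read the same RNA, and by the brightest probe set of each gene 3 of 10 did not overlap, against 14.8% of genes. The median log2 fold change over the 30 was -0.07, with 12 higher and 18 lower in N1-IC+, against 0.0024 over all probe sets, of which 50.5% were higher.

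**Figure D1:**
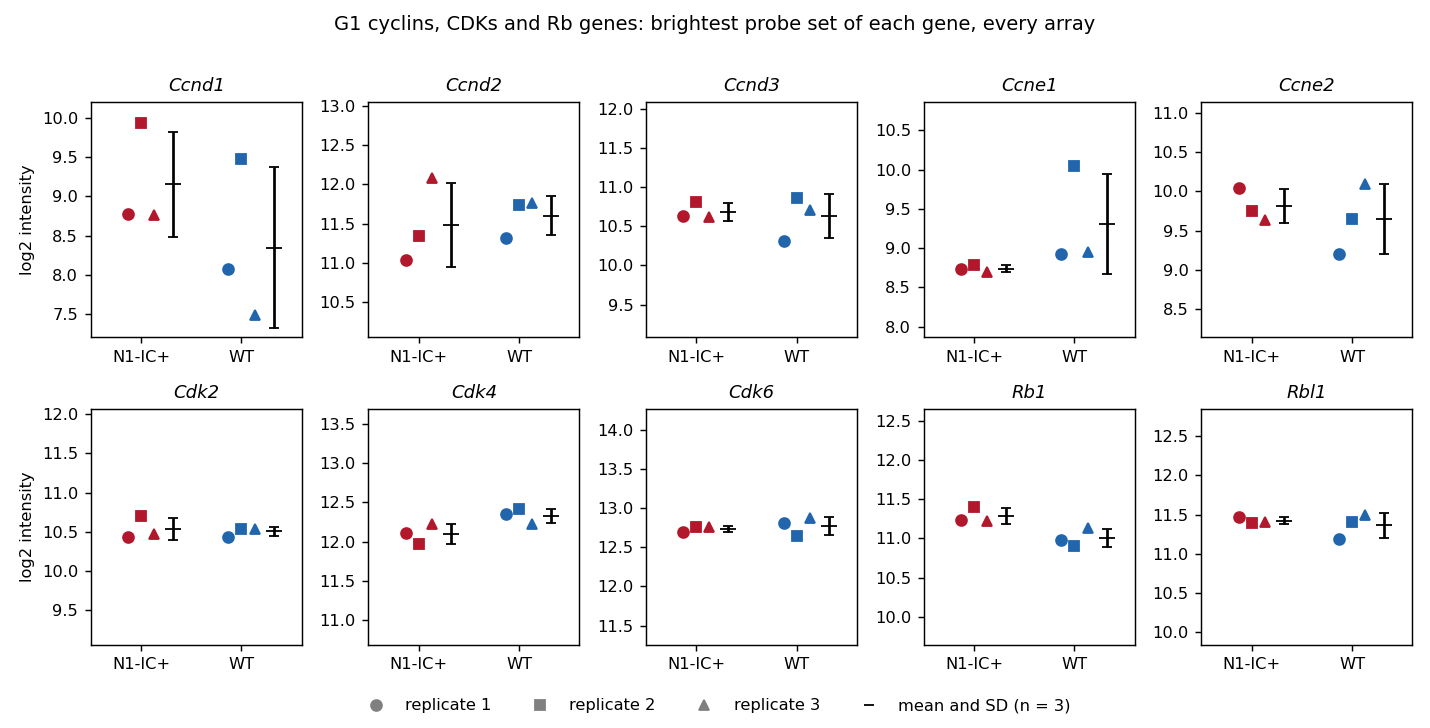
Log2 intensity of the brightest probe set of each of the 10 genes on every array, with N1-IC+ left of WT, replicate numbers as symbols, and the mean with SD (n = 3) as a black bar; each panel spans the same 3 log2 units. Rb1 is higher and Cdk4 and Ccne1 lower on each N1-IC+ array than on any WT array, WT replicate 2 stands alone for Ccne1, and Ccnd1 has the widest scatter of the 10 genes in both groups.

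Ccnd1, which encodes cyclin D1, had a higher mean in N1-IC+ by every probe set, and its arrays scattered widely. The brightest had 8.78, 9.93 and 8.76 log2 units on the N1-IC+ arrays and 8.08, 9.48 and 7.49 on the WT arrays. Replicate 2 was the highest array within each group, so WT replicate 2 lay above N1-IC+ replicates 1 and 3 and the groups overlapped. The log2 fold change was 0.81 ± 0.57 (standard error), a fold of 1.75, with a 95% interval of -0.59 to 2.20 and a limma adjusted p of 0.709. Without WT replicate 2 it was 1.38, and without WT replicate 3 it was 0.38. The dimmest probe set, 1417419_at, had 5.63, 6.21 and 5.64 in N1-IC+ and 5.35, 5.48 and 5.32 in WT, with no overlap. These levels lie around the array medians. Its log2 fold change of 0.44 ± 0.18 had an unadjusted p of 0.0462 and a limma adjusted p of 0.644. The third, 1417420_at, had 6.63, 7.76 and 6.06 in N1-IC+ against 6.01, 6.53 and 5.84 in WT. All 3 probe sets had their highest value on N1-IC+ replicate 2 and their lowest on WT replicate 3.

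Markers of mast cells, basophils and eosinophils also differed between arrays, and some but not most of them peaked where Ccnd1 did. Fcer1a, the gene of the high-affinity IgE receptor alpha chain of mast cells and basophils, had 3.90, 7.95 and 6.68 log2 units in N1-IC+ and 2.94, 8.16 and 2.46 in WT, so its highest array in each group was replicate 2 as well. Of the 11 measured markers of these lineages 3, Fcer1a, Mcpt8 and Prg2, had that pattern; Mcpt8 and Prg2 are named after their values were seen. The mean of the 11 markers was 7.11, 8.16 and 8.20 in N1-IC+ and 7.58, 8.57 and 7.27 in WT, so replicate 2 was the highest in WT but not in N1-IC+. Relative to WT the N1-IC+ mean was above for 8 of these 11 genes and below for 3. An unadjusted limma p under 0.05 was reached by 1, Prg3, lower in N1-IC+ (log2 fold change of -1.89 ± 0.67), and 0 passed the test. The part of these cells in the Ccnd1 values was not tested.

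Ccnd2, which encodes cyclin D2, had a lower mean in N1-IC+ by all 7 probe sets, and the 3 N1-IC+ arrays differed more among themselves than the group means did. The brightest had 11.04, 11.34 and 12.08 log2 units in N1-IC+ and 11.32, 11.73 and 11.76 in WT. For all 7 probe sets N1-IC+ replicate 1 was the lowest and N1-IC+ replicate 3 the highest of the 6 arrays, so the WT arrays sat inside the N1-IC+ range. The SD of the brightest was 0.535 in N1-IC+ and 0.247 in WT (n = 3 each). Its log2 fold change was -0.12 ± 0.29, with an interval of -0.81 to 0.58 and a limma adjusted p of 0.912. The widest difference came from 1430127_a_at, with 9.44, 9.64 and 11.07 in N1-IC+ and 11.01, 10.79 and 10.55 in WT, a log2 fold change of -0.73 ± 0.43 with a limma adjusted p of 0.681. Without N1-IC+ replicate 3 this probe set had -1.24 (unadjusted p of 0.000673 and adjusted p of 0.459 in limma) and the brightest -0.41, and without N1-IC+ replicate 1 the brightest had 0.11.

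The Notch response genes Nrarp, Hes1 and Myc did not order the arrays of both groups as the brightest Ccnd2 probe set did. Hes1, a Notch-induced repressor gene, had 6.44, 6.80 and 7.88 log2 units in N1-IC+ and 6.12, 5.52 and 5.87 in WT. Myc, a growth regulator and Notch target that also drives Ccnd2 in other settings, had 10.40, 10.51 and 11.06 in N1-IC+ and 11.47, 11.25 and 10.89 in WT (log2 fold change of -0.55 ± 0.23, limma adjusted p = 0.644). Within N1-IC+ replicate 3 was the highest array for Ccnd2, Nrarp, Hes1 and Myc alike. Within WT replicate 3, the highest for Ccnd2 by its brightest probe set, was the lowest for Nrarp and Myc. By 1430127_a_at it was the lowest for Ccnd2 as well, and Nrarp and Myc ordered the arrays of both groups as that probe set did. Of the other genes of the Notch list Notch1 did so too, and Hes1, Hey1, Hes5 and Dtx1 did not. This probe set was picked from the 7 after the values were seen. For the other Ccnd2 probe sets the highest WT array was replicate 2 or 3. With 3 arrays a group no relation within the group was tested.

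Ccnd3, which encodes cyclin D3, gave probe sets that went different ways. The brightest had 10.63, 10.81 and 10.61 log2 units in N1-IC+ and 10.31, 10.86 and 10.71 in WT, a log2 fold change of 0.05 ± 0.16 with an interval of -0.34 to 0.45 (limma adjusted p = 0.930). The groups overlapped and WT replicate 1 was the lowest array. The dimmer 1438805_at had 6.39, 6.42 and 6.58 in N1-IC+ and 7.59, 6.79 and 6.48 in WT, so there WT replicate 1 was the highest. The third probe set, 1444323_at, had a log2 fold change of -0.15 ± 0.45 at a level near the array medians.

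Cdk4, the kinase partner of the D-type cyclins, sat below WT on each N1-IC+ array by all 3 of its probe sets, with a small margin. The brightest had 12.11, 11.97 and 12.22 log2 units in N1-IC+ and 12.35, 12.41 and 12.23 in WT. The closest arrays, N1-IC+ replicate 3 and WT replicate 3, were only 0.0065 apart. The log2 fold change was -0.23 ± 0.11, a fold of 0.85, with an interval of -0.49 to 0.04 and a limma adjusted p of 0.645. The other probe sets, 1422439_a_at and 1422440_at, had -0.23 ± 0.11 and -0.31 ± 0.13. Values of 1422439_a_at were 11.94, 11.83 and 12.04 in N1-IC+ and 12.19, 12.27 and 12.05 in WT, with the closest arrays 0.0051 apart. Those of 1422440_at were 10.70, 10.38 and 10.71 in N1-IC+ and 10.93, 10.99 and 10.78 in WT. All 3 were designed on 1 transcript record, so they repeat 1 measurement of the RNA rather than add samples. The interval allows a decrease of up to 0.49 by the brightest and of up to 0.62 by 1422440_at.

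The promoters of Cdk4 and Ccne1 are shown because these were the genes whose every probe set separated the groups, and that of Rbl1 because it holds a word of E2F type, the output arm of the pathway. Each is the 250 bases before the RefSeq gene start in GRCm38.p6, written 5′ to 3′ on the gene's strand. Capitals mark the E-box CACGTG, the core word bound by MYC with MAX, and the E2F-type words TTTCCCGC, TTTCGCGC, TTTGCCGC and TTTGGCGC, each searched on both strands.
Cdk4, chr10:127063285-127063534, + strand: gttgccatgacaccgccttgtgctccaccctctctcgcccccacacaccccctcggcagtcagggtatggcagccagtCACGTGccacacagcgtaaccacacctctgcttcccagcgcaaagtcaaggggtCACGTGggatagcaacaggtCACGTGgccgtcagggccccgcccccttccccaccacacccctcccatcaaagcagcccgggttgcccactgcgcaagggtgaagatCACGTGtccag
Ccne1, chr7:38107491-38107740, - strand: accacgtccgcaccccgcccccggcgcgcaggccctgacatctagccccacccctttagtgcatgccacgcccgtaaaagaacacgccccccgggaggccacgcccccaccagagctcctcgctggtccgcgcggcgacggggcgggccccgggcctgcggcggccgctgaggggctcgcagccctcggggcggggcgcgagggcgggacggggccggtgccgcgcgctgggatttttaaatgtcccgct
Rbl1, chr2:157204535-157204784, - strand: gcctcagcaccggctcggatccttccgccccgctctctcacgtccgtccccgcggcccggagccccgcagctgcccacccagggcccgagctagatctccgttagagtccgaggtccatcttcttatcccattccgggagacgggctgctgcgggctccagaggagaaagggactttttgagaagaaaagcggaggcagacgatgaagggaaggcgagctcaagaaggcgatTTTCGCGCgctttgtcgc
The Cdk4 window held 4 copies of CACGTG, a word that does not overlap the E2F-type words and occurs in 6.02% of 32851 promoter windows of this length. The Rbl1 window held 1 E2F-type word, as did that of Cdk2, against 1.86% of all windows, and the Cdk6 window held 1 CACGTG. The windows of Ccne1 and both windows of Ccnd3 held none of these letters. Sequences were at hand for 6 of the 10 genes. Entries for Ccnd1, Ccnd2, Ccne2 and Rb1 were not used here. A match describes the letters of the window and is not a measured binding site.

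Cdk6, the other D-cyclin kinase, was nearly level between the groups by its brightest probe set. Its brightest probe set had 12.69, 12.76 and 12.76 log2 units in N1-IC+ and 12.80, 12.65 and 12.87 in WT. The groups overlapped, and the log2 fold change of -0.04 ± 0.10 had an interval of -0.28 to 0.20 (limma adjusted p = 0.915). For this probe set a decrease beyond 0.28 or an increase above 0.20 lay outside that interval. The second, 1455287_at, gave -0.04 ± 0.10 as well. The third, 1460291_at, had 9.73, 9.68 and 9.75 in N1-IC+ and 9.42, 9.25 and 9.75 in WT. Its log2 fold change of 0.24 ± 0.14 had an interval of -0.11 to 0.59 (limma adjusted p = 0.682), which allows a larger increase. WT replicate 3 was the highest array for all 3 probe sets.

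**Figure D2:**
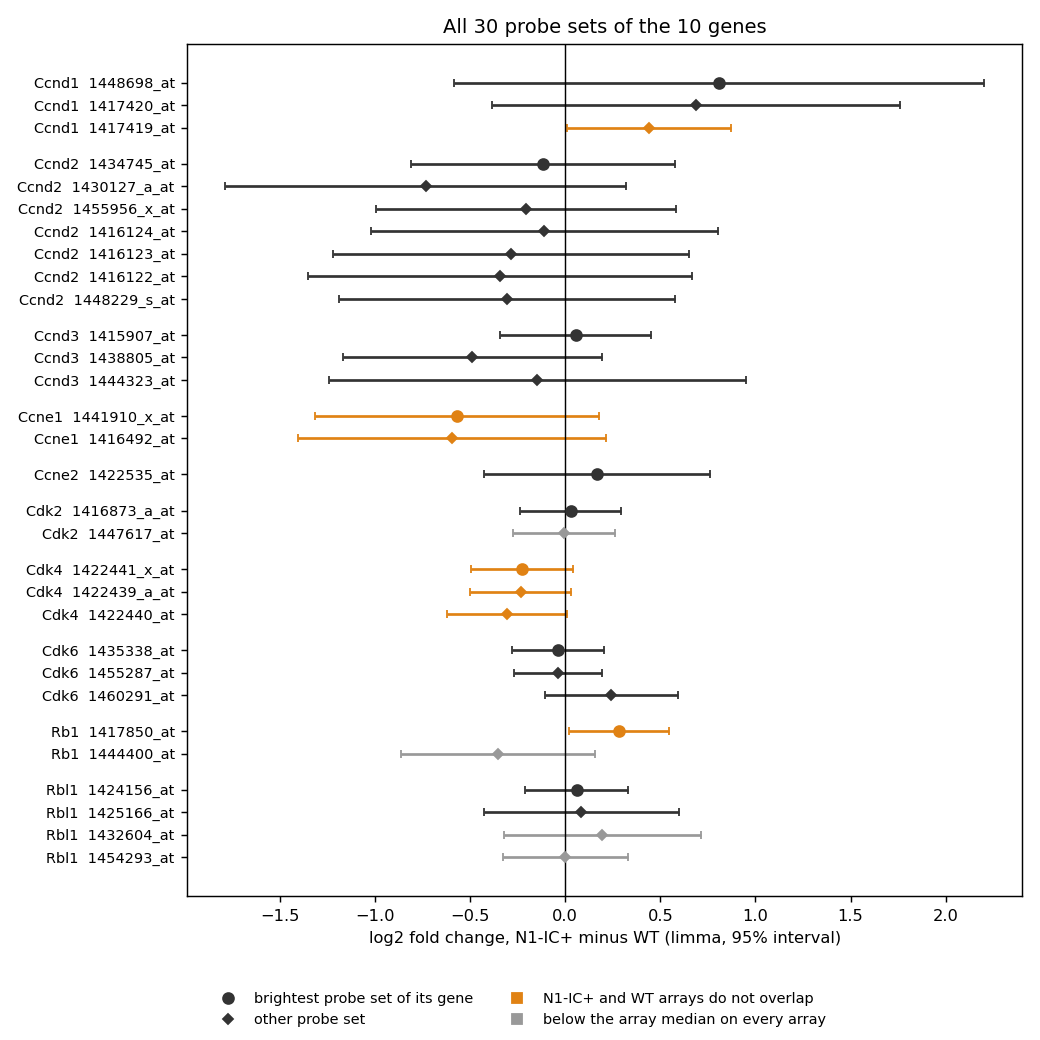
Log2 fold change of N1-IC+ minus WT with limma's 95% interval for all 30 probe sets, grouped by gene; circles mark the brightest probe set of a gene, orange the 7 whose groups do not overlap, and grey the 4 that lie below the array median on every array. The intervals of 1 probe set each of Ccnd1 and Rb1 exclude 0 before adjustment, and the brightest probe sets of Cdk2, Cdk4, Cdk6, Rb1 and Rbl1 have narrower intervals than those of the 5 cyclins.

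Ccne1, which encodes cyclin E1, sat below all WT arrays on each N1-IC+ array by both probe sets, and 1 WT array set the size of the difference. The brighter, 1441910_x_at, had 8.74, 8.78 and 8.70 log2 units in N1-IC+ and 8.93, 10.04 and 8.95 in WT. The N1-IC+ arrays were tight, with an SD of 0.0439 against 0.636 in WT, and WT replicate 2 stood more than 1 log2 unit above every other array. The log2 fold change was -0.57 ± 0.31 with an interval of -1.31 to 0.18 and a limma adjusted p of 0.666. Without WT replicate 2 it was -0.20. The other probe set, 1416492_at, had 8.58, 8.54 and 8.48 in N1-IC+ and 8.69, 9.93 and 8.77 in WT, a log2 fold change of -0.60 ± 0.33.

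The WT array with high Ccne1 was the one with high erythroid markers. Klf1, an erythroid transcription factor gene, had 5.46, 5.68 and 6.14 log2 units in N1-IC+ and 6.16, 10.04 and 6.25 in WT, and Rhd, of the Rh blood group family, had 8.38, 7.64 and 7.58 in N1-IC+ and 8.38, 10.08 and 8.21 in WT. Of the 13 measured erythroid and megakaryocyte markers 3 were above and 10 below WT in their N1-IC+ mean, 2 had an unadjusted limma p under 0.05, and 0 passed. All markers of that list but Gp9, Itga2b and Hba-a1 had their highest value of the 6 arrays on WT replicate 2. Itga2b and Hba-a1 are named after their values were seen. The platelet gene Gp9 had 8.80, 8.72 and 8.82 in N1-IC+ and 7.75, 7.93 and 8.66 in WT. The part of erythroid cells in the Ccne1 values was not tested.

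Ccne2, which encodes cyclin E2, did not follow Ccne1. Its single probe set had 10.05, 9.75 and 9.64 log2 units in N1-IC+ and 9.19, 9.65 and 10.09 in WT. The WT arrays spanned the whole N1-IC+ range, and the log2 fold change of 0.17 ± 0.24 had an interval of -0.43 to 0.76 (limma adjusted p = 0.846). WT replicate 1, the array with the low late granulocyte markers, was the lowest of the 6, and without it the log2 fold change was -0.058. Cdk2, the kinase of the E cyclins, had 10.43, 10.70 and 10.47 in N1-IC+ and 10.44, 10.53 and 10.54 in WT by its brighter probe set, with a log2 fold change of 0.03 ± 0.11, an interval of -0.24 to 0.29 and a limma adjusted p of 0.945. The other Cdk2 probe set lay at 2.23 to 2.48 on the 6 arrays, below the lower quartile of each, and carries little information.

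Rb1, the retinoblastoma gene, had the smallest p of the 10 genes, and by its bright probe set the N1-IC+ arrays all exceeded the WT arrays. That probe set, 1417850_at, had 11.24, 11.40 and 11.22 log2 units in N1-IC+ and 10.98, 10.90 and 11.13 in WT. The log2 fold change was 0.28 ± 0.11, a fold of 1.22, with an interval of 0.02 to 0.54, an unadjusted p of 0.0387 and a limma adjusted p of 0.640. With 1 array left out the log2 fold change lay between 0.23 and 0.35. The other probe set, 1444400_at, lay below the array median on every array, at 5.14, 5.02 and 4.94 in N1-IC+ and 4.92, 5.66 and 5.58 in WT, and its log2 fold change was of the other sign, at -0.35 ± 0.21. With 1 array left out it lay between -0.59 and -0.22. The value of -0.59 came without WT replicate 1 (unadjusted p of 0.00339 and adjusted p of 0.804 in limma).

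Rbl1, the gene of p107, showed no separation. Its brightest probe set had 11.47, 11.39 and 11.40 log2 units in N1-IC+ and 11.19, 11.40 and 11.50 in WT, a log2 fold change of 0.06 ± 0.11 with an interval of -0.21 to 0.33 and a limma adjusted p of 0.881. As for Ccnd3 and Ccne2, WT replicate 1 was the lowest array. The second, 1425166_at, had 10.78, 10.81 and 10.26 in N1-IC+ and 10.21, 10.69 and 10.71 in WT. The other probe sets of Rbl1 lay at 3.94 to 5.07, below the array median on all arrays, with log2 fold changes of 0.19 and 0.0014. Rbl2, which encodes the third pocket protein p130, had 9.06, 8.99 and 9.04 in N1-IC+ and 9.07, 8.65 and 9.14 in WT.

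**Figure D3:**
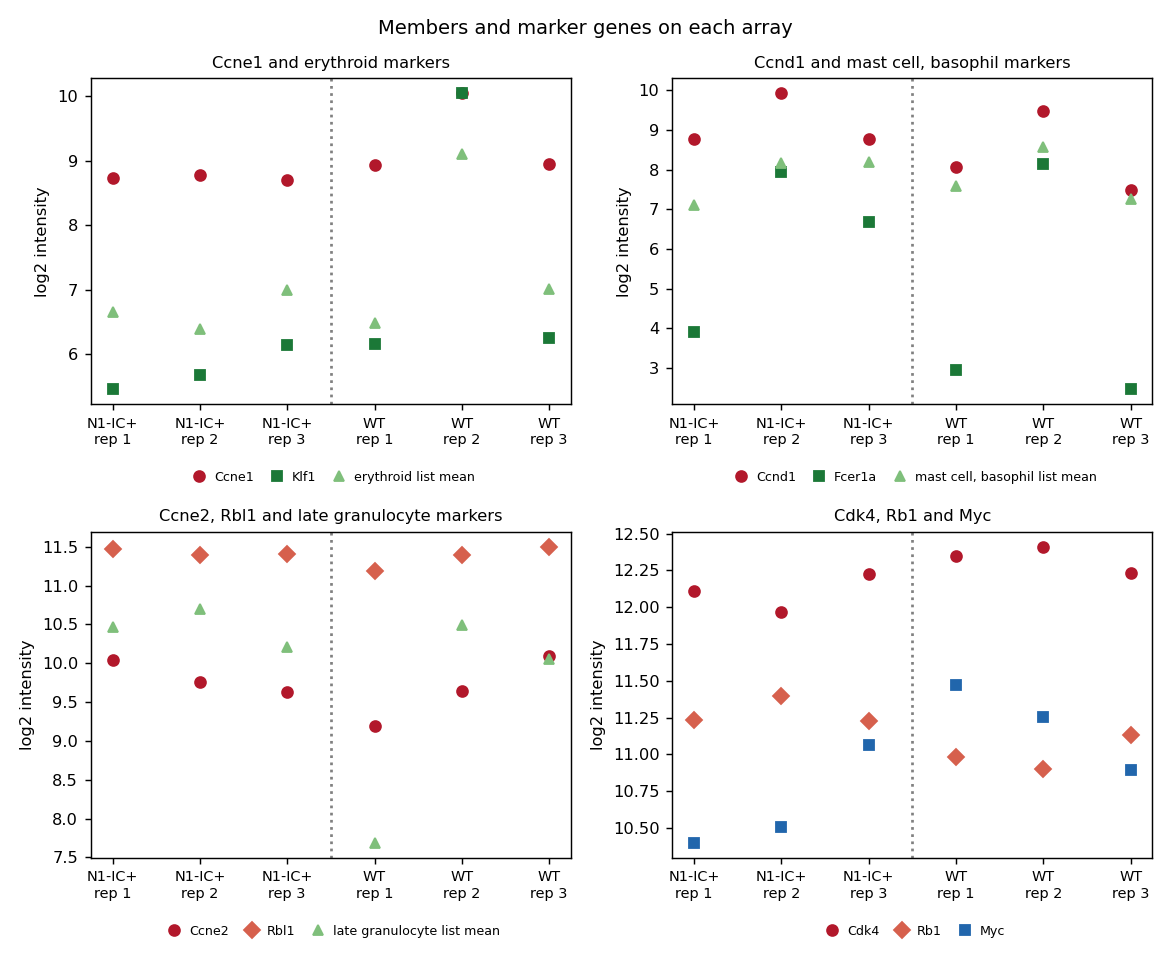
Log2 intensity on each of the 6 arrays for members of the group and for marker genes or marker list means, N1-IC+ arrays left of the dotted line and WT arrays right; heights compare arrays within 1 symbol, not genes. WT replicate 2 is high for Ccne1 and Klf1, replicate 2 of both groups is high for Ccnd1 and for Fcer1a, which was chosen among 11 markers, WT replicate 1 is low for Ccne2, Rbl1 and the late granulocyte mean, and Cdk4 and Rb1 separate the groups in opposite directions.

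Across the 10 brightest probe sets no array was uniformly high or low. WT replicate 1 was the lowest array for 3 genes and the highest for 0, whereas WT replicates 2 and 3 were each the highest for 3. N1-IC+ replicate 2 was the highest for 3 and the lowest for 1. The number of the 30 probe sets at an unadjusted p under 0.05 changed with the array left out. The share of all probe sets at that mark is not given for these fits. The counts so describe the fits, and whether they exceed the background was not tested. The number was 6 without N1-IC+ replicate 3, namely 4 of Ccnd2, lower in N1-IC+, and 2 of Ccnd1, higher in N1-IC+. It was 4 without WT replicate 3, 1 each without N1-IC+ replicate 1, WT replicate 1 and WT replicate 2, and 0 without N1-IC+ replicate 2. Without WT replicate 3 these were of Cdk6 and Rb1, higher in N1-IC+, and of Cdk4 and Ccnd3, lower. Without WT replicate 1 it was the dim probe set of Rb1, lower in N1-IC+, and in the other fits with 1 it was of Ccnd1, higher. In each of these fits 0 of the 30 passed after adjustment.

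The genes that act on or below these proteins were read by the brightest probe set of each gene, and 0 passed over all probe sets in any of the 6 lists that follow, set against 14.8% of all genes with separate groups and 7.23% with an unadjusted p under 0.05. Such a p was reached by 1 E2F factor (E2f5), 1 CDK inhibitor (Cdkn2c), 1 ubiquitin ligase part (Fbxo4), 1 E2F target (Orc1) and 0 genes of the other lists. Among the 11 E2F factors, DP partners and Rbl2, 4 were above and 7 below WT in N1-IC+, with a median log2 fold change of -0.02 against 0.01 over all genes. E2f5, a factor that pairs with p130 and p107, had 5.05, 4.83 and 5.48 log2 units in N1-IC+ and 6.01, 6.35 and 5.85 in WT. The groups did not overlap, the N1-IC+ values lay below the array medians, and the log2 fold change was -0.95 ± 0.21 (unadjusted p of 0.00374, limma adjusted p of 0.624). E2f6, a repressor of the family, had 9.37, 9.29 and 9.72 in N1-IC+ and 9.83, 9.74 and 9.73 in WT, also without overlap. The activators E2f1, E2f2 and E2f3 had -0.10, -0.13 and -0.02 with overlapping groups.

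Of the 7 CDK inhibitor genes 4 were above and 3 below WT in N1-IC+, and 2 had groups without overlap. Cdkn2c, which encodes p18, an inhibitor of CDK4 and CDK6, had 11.82, 11.47 and 10.30 log2 units in N1-IC+ and 9.05, 10.04 and 9.66 in WT, without overlap (log2 fold change of 1.61 ± 0.44, limma adjusted p = 0.639). Cdkn2b, of the same INK4 family, was low on all arrays at 3.89 to 3.91 in N1-IC+ and 3.94 to 4.22 in WT. Cdkn1a, the p21 gene, had 8.48, 9.01 and 8.70 in N1-IC+ and 9.22, 9.50 and 8.86 in WT.

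The 6 genes of the CDK-activating kinase and the CDC25 phosphatases had log2 fold changes between -0.21 and 0.09, and in none did the groups separate. Of 10 ubiquitin ligase parts that act on G1 cyclins or p27, 3 were above and 7 below WT. Fbxo4, which encodes an F-box protein reported to act on cyclin D1, had 7.56, 7.47 and 7.09 in N1-IC+ and 7.80, 7.66 and 7.90 in WT, a log2 fold change of -0.42 ± 0.15 (limma adjusted p = 0.639). Of 23 E2F target genes of the G1/S transition, 13 were above and 10 below WT, with a median of 0.008. In this list Orc1, of the origin recognition complex, had -0.67 ± 0.24 and the helicase genes Mcm5, Mcm4 and Mcm3 had 0.30, 0.28 and 0.21, Mcm3 without overlap. The other helicase subunits, named after their values were seen, gave no common direction, with Mcm2 at 0.05 and with Mcm6 and Mcm7 at -0.10 and -0.16 and their N1-IC+ arrays below WT without overlap. The list mean was 11.12, 11.08 and 11.02 in N1-IC+ and 10.92, 11.19 and 11.17 in WT, so both ends of the range were WT arrays. Of 14 S, G2 and M phase genes 5 were above and 9 below WT, with Plk1 and Ccnb2 at 0.33 and 0.28 and the proliferation marker Mki67 at -0.40, and no groups separated.

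**Figure D4:**
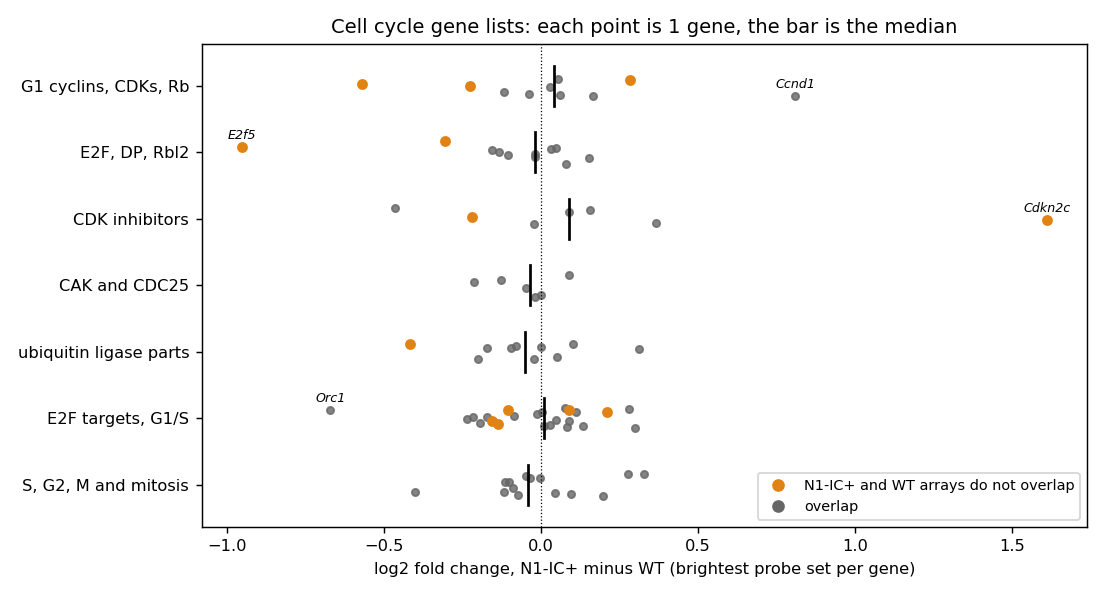
Log2 fold change of N1-IC+ minus WT for each gene of 7 cell cycle lists by its brightest probe set; black bars are list medians, and orange points are genes whose groups do not overlap. The medians lie between -0.05 and 0.09, and Cdkn2c, Ccnd1, Orc1 and E2f5 lie farthest from 0.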

How the data were processed

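RNA of sorted cells was amplified and hybridised to Affymetrix arrays, 1 per sample, 3 N1-IC+ and 3 WT. The values the authors deposited are linear intensities per probe set. RMA (background correction, quantile normalization and probe summary) is named, without a version, in the submitters' processing notes. Sorted array values lay within 0.103 log2 units of their mean, so any change is relative to the rest of its array. Array medians were 49.6 to 51.0 intensity units, and the number of arrays limits the precision.

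Log2 was taken with no offset. All 45101 probe sets were fitted in R 4.3.3 with limma 3.58.1 (lmFit, eBayes, no block) and adjusted by Benjamini-Hochberg over all of them, with calls at an adjusted p under 0.05. Errors of fold changes are limma's standard errors. In simulated runs, each holding 200 changed probe sets, limma recovered 40.8% of changes of 1 log2 unit, 86.8% of 2 and 93.6% of 4. The adjustment depends on how many probe sets change, and the real comparison gave 4 calls. These rates are therefore not the power of the real comparison. Of its 4 measured sex-linked genes only Eif2s3y was called. Xist at 5.52, Kdm5d at -4.91 and Uty at -4.32 were not (limma adjusted p of 0.639, 0.239 and 0.0725). Every member's change was smaller than 1, so the lack of calls does not show that the members were unchanged. Of the probe sets 34958 had 1 gene symbol, 932 several and 9211 none. Detection calls and scan dates were not used here.

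Members and lists were chosen with earlier results of these data known. Values by array are given for the brightest probe set of each member and for those with an unadjusted p under 0.05 or groups without overlap. All genes of the E2F, CDK inhibitor, Notch, sort gate and sex-linked lists and up to 4 with the smallest p of the other lists could also be named. Same-numbered arrays were not paired, since their deviations from the group means correlated at 0.013, 0.040 and -0.077. Alternatives were a trend, a robust prior, array weights, quantile normalization, median centring, a filter at the median level, the brightest or mean probe set of a gene, a replicate block, an offset of 16, a threshold of 0.1, and each array left out. An alternative limited to probe sets of the plain _at type was chosen after seeing the data.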

Additional observations from a re-analysis of the deposited data

How the results depend on the processing

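Under every alternative run, 0 of the 30 probe sets passed the adjusted threshold. The number of all probe sets that passed was 4 in the chosen fit, 7 with a mean-variance trend, 1 with the brightest probe set of each gene, 2 with the replicate block, 10 at an adjusted p under 0.1, and 3 to 8 with 1 array left out. Of the 30, 2 had an unadjusted p under 0.05; this was 4 with a mean-variance trend and with an offset of 16 (Rb1 and the 3 of Cdk4 in both), 1 with array weights, 1 among probe sets at or above the median level, 1 with the brightest probe set per gene, 0 with probe sets averaged by gene, and 0 to 6 with 1 array left out. With the replicate block 3 had such a p, all of Ccnd1 and higher in N1-IC+. The share of all probe sets with such a p is given only for the chosen fit, at 7.69%. The counts under the alternatives so lack a background of their own. The median log2 fold change of the 30 ran from -0.092 to 0.026 with 1 array left out and was 0.041 over the 10 brightest. The settings were followed for 14 probe sets, the brightest of each gene and any other with an unadjusted p under 0.05 or separate groups. Over these 14, each under the settings that include it, 214 of 225 values kept their sign and stayed uncalled, and the smallest adjusted p was 0.38. Outside these 14, 1460291_at of Cdk6 had a limma adjusted p of 0.355 without WT replicate 3. With probe sets averaged by gene, Ccnd3 had -0.19, Cdk6 0.055 and Rb1 -0.035, since their probe sets differ in sign. With 1 array left out the log2 fold change ran from -0.41 to 0.11 for Ccnd2, from -0.10 to 0.17 for Ccnd3, from -0.058 to 0.39 for Ccne2, from -0.053 to 0.080 for Cdk2, from -0.10 to 0.0098 for Cdk6 and from -0.026 to 0.13 for Rbl1. Whether dim probe sets exceed background is unknown.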
